A study of Mus musculus with 72 samples.

Results

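Mouse bone marrow-derived macrophages labelled Setd1bKO were compared with control macrophages in their response to dexamethasone (Dex) under lipopolysaccharide (LPS). The quantity described is a difference of responses, the Dex change in the libraries labelled Setd1bKO minus the Dex change in control, on the log2 scale of TPM + 1. TPM is a transcript abundance corrected for transcript length and for the library's total. The comparison takes 12 of the 72 libraries of the series, in 4 groups of 3. The control groups received 16 h of ethanol vehicle and 6 h of LPS at 100 ng/ml, or 16 h of 1 uM Dex and 6 h of LPS. Their titles carry wt, while their genotype label is Setd1bHet, and they are called control here. The 2 other groups received the same treatments and carry the genotype label Setd1bKO. All donors were of strain C57BL/6J, and the cells were grown out of marrow with supernatant of L929 cells, a source of M-CSF and GM-CSF. The labels name neither a Cre driver nor the deleted exons, nor whether replicates came from separate animals or cultures. The p-values therefore measure the spread between these libraries, which may be technical.

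LPS is the bacterial ligand of Toll-like receptor 4, which switches on cytokine, chemokine and interferon genes through NF-kB, MAP kinases and interferon regulatory factors. Dex is a synthetic glucocorticoid. It binds the glucocorticoid receptor Nr3c1, which then enters the nucleus, raises genes such as Tsc22d3, Fkbp5, Per1 and Dusp1 at glucocorticoid response elements, and lowers many inflammatory genes. Setd1b is a catalytic subunit of a COMPASS complex, which methylates histone H3 at lysine 4 around active promoters. The comparison asks, as far as the series states its purpose, which parts of the Dex response depend on Setd1b.

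The targeted gene was not lower in the libraries labelled Setd1bKO. Setd1b (chromosome 5, 123142193 to 123168629, GRCm38) had 5.46, 5.36 and 8.53 TPM with LPS and 4.49, 7.66 and 5.18 TPM with Dex and LPS in control. In the libraries labelled Setd1bKO it had 6.01, 6.89 and 9.64 TPM with LPS and 4.47, 7.64 and 7.10 TPM with Dex and LPS, so that the groups overlapped, and its difference of Dex responses was -0.07 ± 0.30 (adjusted p = 0.94). A sum over all exons does not check a deletion of some of them, and each direction below is that of the libraries labelled Setd1bKO. The sex label is female while the growth protocol speaks of males, and 4 Y-linked genes summed to 46.0 to 84.1 TPM in every library of both genotypes. All 6 macrophage markers were present in every group, at a summed 23608 to 28255 TPM in the 6 control libraries and 16199 to 18061 TPM in the 6 libraries labelled Setd1bKO. Most of each sum was the lysozyme gene Lyz2. Of markers of other cells, 2 of 9 neutrophil genes, 1 of 8 dendritic cell genes, 1 of 6 B cell genes, 1 of 7 stromal genes and 5 of 8 osteoclast genes were listed. None of the 7 T and NK cell, 6 mast cell or 6 erythroid genes was listed.

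Of 9159 tested genes, 569 had a Dex response that differed between genotypes by limma at an adjusted p under 0.05, which is 6.21% of those tested. The difference was positive for 246 (2.69%) and negative for 323 (3.53%). It reached at least 2-fold for 25 positive and 20 negative genes. A positive difference means that Dex raised a gene more, or lowered it less, in the libraries labelled Setd1bKO. The median over all genes was -0.03. Median-of-ratios scaling, which sets the median gene of each library equal, gave 323 positive and 282 negative genes, so the balance of the signs turned with the scaling. On the unscaled TPM, most genes with a called Dex response in 1 genotype had a call of the same sign in the other. Dex raised 4100 genes (44.8%) and lowered 1389 (15.2%) in control, 59.9% of the tested genes together, and it raised 3591 (39.2%) and lowered 1234 (13.5%) in the libraries labelled Setd1bKO, 52.7% together. The 2935 genes raised in both genotypes made up 71.6% of those raised in control and 81.7% of those raised in Setd1bKO. The 997 genes lowered in both made up 71.8% and 80.8% of the lowered genes. The Dex responses of the 9159 genes, which come from separate libraries in the genotypes, had a Pearson correlation of 0.84 across genes (Spearman 0.77), and genes are not independent replicates. Scaling moved the median Dex response by -0.19 in control and -0.16 in Setd1bKO, and the median difference by 0.03. With scaling Dex raised 1884 and lowered 2454 genes in control, and raised 1404 and lowered 2178 in Setd1bKO, so the balance of raised and lowered genes turned as well. The overlaps between the genotypes were not counted with scaling, and the part of the common shift in them was not tested. A small Dex change of a single gene within 1 genotype can likewise turn with the scaling. For some genes below, the authors' own deposited Dex fold changes are given as well, for which their notes name DESeq2.

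**Figure D1:**
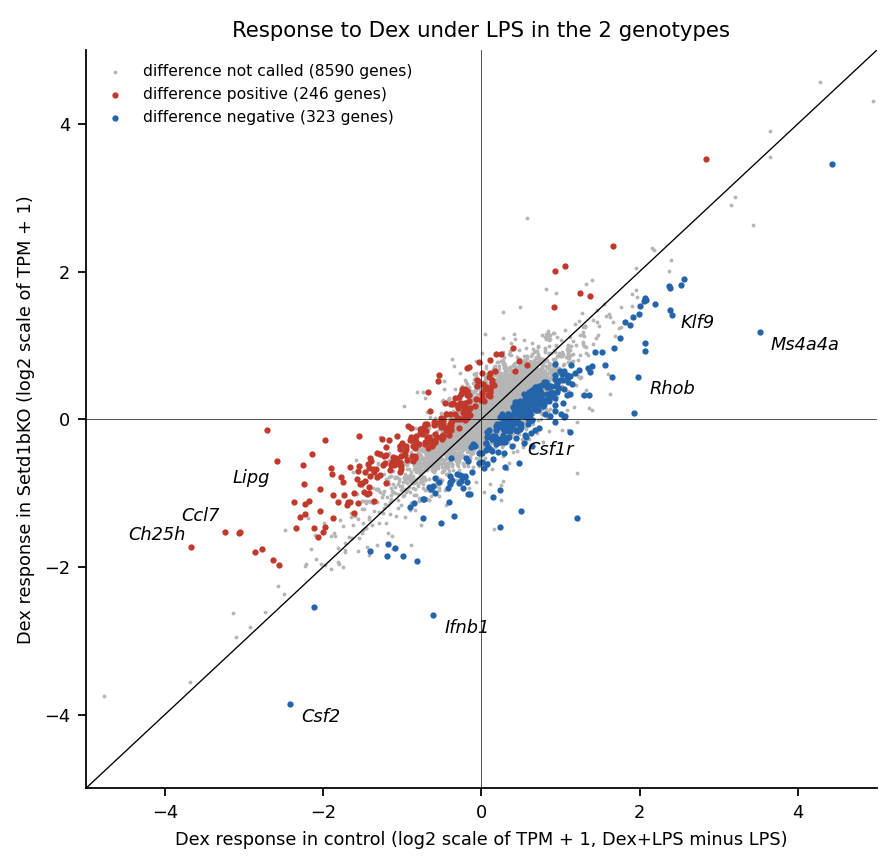
Dex response of each tested gene in control (horizontal axis) and in the libraries labelled Setd1bKO (vertical axis), both as Dex with LPS minus LPS on the log2 scale of TPM + 1. Each point is a gene, the diagonal marks equal responses, red and blue points mark the 246 positive and 323 negative differences, and Ms4a4a, Ifnb1 and Csf2 lie far below the diagonal while Lipg, Ccl7 and Ch25h lie above it.

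Most but not all listed glucocorticoid-induced genes were raised by Dex in each genotype. Of 31 tested members of this list, Dex raised 21 in control and 19 in Setd1bKO, where it raised 44.8% and 39.2% of all genes. It lowered 5 in each, where it lowered 15.2% and 13.5% of all genes. The difference was negative for 6 and positive for 1, against 3.53% and 2.69% of all genes, with a median of -0.12. Tsc22d3, which encodes the anti-inflammatory leucine zipper GILZ, had 1.96, 1.35 and 2.74 TPM with LPS and 103, 90.8 and 78.6 TPM with Dex in control. The Setd1bKO libraries had 1.81, 1.67 and 2.91 TPM and 64.2, 61.8 and 55.2 TPM. The genotypes overlapped with LPS alone, and with Dex every Setd1bKO library lay below every control library. The difference was -0.63 ± 0.22 and was not called (adjusted p = 0.108, 95% interval -1.09 to -0.17). It was called with a pseudocount of 5, at -0.57 (adjusted p = 0.0114), and without control LPS replicate 3, at -0.80 (adjusted p = 0.0278). Fkbp5, a chaperone that restrains the receptor, rose by 3.21 ± 0.086 in control and 3.01 ± 0.086 in Setd1bKO (difference -0.20 ± 0.12, adjusted p = 0.415, interval -0.46 to 0.06). The metallothionein Mt1 rose from 347 ± 39.7 to 4337 ± 92.4 TPM in control and from 358 ± 18.4 to 5383 ± 282 TPM in Setd1bKO, and its difference was not called (0.26 ± 0.093, adjusted p = 0.131). That of the clock gene Per1 was not called either (-0.81 ± 0.27, adjusted p = 0.095). Mt1 was called without control LPS replicate 2 (adjusted p = 0.00893), and Per1 without Setd1bKO LPS replicate 2 (adjusted p = 0.0159). Not every well-known gene rose. In the authors' fold changes Sgk1 changed by -0.52 in control and -0.14 in Setd1bKO (their adjusted p = 1.31e-09 and 0.199). The limma difference of Sgk1 was not called (0.34, adjusted p = 0.157), except without Setd1bKO Dex with LPS replicate 1 (adjusted p = 0.0354). In this bulk RNA, fewer cells with a transcript and less transcript per cell cannot be told apart, here and in what follows.

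The members of this list with called differences moved both ways. Rhob, a small GTPase of endosomes and the cytoskeleton, had 120.4, 109.6 and 118 TPM with LPS in control and 448, 469.5 and 471 TPM with Dex. In the libraries labelled Setd1bKO it stood at 335, 340.3 and 325 TPM with LPS and 500.3, 516 and 477 TPM with Dex. Every Setd1bKO library lay above every control library in both treatments, by a gap that was far wider with LPS alone (1.51 ± 0.046) than with Dex (0.11 ± 0.046, adjusted p = 0.0903). The Dex response was 1.99 ± 0.046 in control and 0.58 ± 0.046 in Setd1bKO, a difference of -1.41 ± 0.065 (adjusted p = 7.59e-09). Klf9, a Krüppel-like transcription factor, was also higher in Setd1bKO with LPS alone, and overlapped between genotypes with Dex. It went from 4.92 ± 0.564 to 29.8 ± 1.22 TPM in control and from 9.60 ± 1.56 to 28.6 ± 5.05 TPM in Setd1bKO, a difference of -0.91 ± 0.18 (adjusted p = 0.006). Tns1, a focal adhesion protein, was at 1.15, 0.622 and 0.743 TPM with LPS in control and 1.12, 0.866 and 0.795 TPM in Setd1bKO. With Dex it reached 36.3, 42.6 and 36.96 TPM in control and 17.9, 22.6 and 20.3 TPM in Setd1bKO. Here the genotypes overlapped with LPS alone and were apart with Dex, and the difference was -0.97 ± 0.18 (adjusted p = 0.00321). Dusp1, the phosphatase that switches off p38 and JNK, was the single positive member. It had 39.8, 39.5 and 39.9 TPM with LPS and 300.3, 287 and 286 TPM with Dex in control, and 29.9, 31.1 and 27.05 TPM and 342, 351 and 352 TPM in Setd1bKO. It was lower in Setd1bKO before Dex and higher after it, with no overlap in either treatment (difference 0.69 ± 0.078, adjusted p = 7.32e-05).

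Of 23 tested genes for the receptor and its partners 0 had a called difference by limma, against 6.21% of all genes. Of the 23, 3 had an unadjusted p under 0.05, against 1737 of all 9159 genes, and scaling called 1 negative. Nr3c1 itself had 61.98 ± 9.82 TPM with LPS and 77.6 ± 14.3 TPM with Dex in control, and 64.6 ± 10.1 and 76.99 ± 24.04 TPM in Setd1bKO. Its difference was -0.11 ± 0.35 (adjusted p = 0.911), with an interval of -0.85 to 0.63 that leaves room for changes either way. Of 19 COMPASS subunits, 1 was called, 5.26% against 6.21% of all genes. Wdr5, a scaffold of the complex, rose by 0.59 ± 0.048 with Dex in control and by 0.25 ± 0.048 in Setd1bKO (difference -0.34 ± 0.068, adjusted p = 0.00554). Its rise in Setd1bKO was not called in the authors' fold changes (0.07, their adjusted p = 0.444).

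CC chemokines and their receptors, which call monocytes and T cells to inflamed tissue, had mostly positive differences among their called members. Of 14 tested members, 6 had positive and 2 had negative differences, against 2.69% and 3.53% of all genes, with a median of 0.21. Scaling left 1 of the negative calls. Dex lowered 10 of the 14 in control and 9 in Setd1bKO, where it lowered 15.2% and 13.5% of all genes. Ccl7, a monocyte chemokine (chromosome 11, 82045712 to 82047525), had 609, 639.9 and 577 TPM with LPS and 75.1, 63.8 and 53.6 TPM with Dex in control. Its Setd1bKO values were 412, 429 and 376 TPM with LPS and 139, 139 and 142 TPM with Dex. Dex thus left 10.5% of the LPS level in control and 34.6% in Setd1bKO, and the order of the genotypes turned: Setd1bKO was lower before Dex and higher after it, without overlap. The difference was 1.71 ± 0.18 (adjusted p = 4.15e-05). Its neighbour Ccl2 fell from 1819, 1811 and 1700.3 TPM to 559.6, 501 and 503 TPM in control. In Setd1bKO it fell from 5027, 4678 and 4966 TPM to 2765, 2778 and 3022 TPM, and all Setd1bKO libraries with Dex lay above all control libraries without it. The difference was 0.99 ± 0.11 (adjusted p = 3.88e-05). Ccl12 (1.24 ± 0.24) and Ccl8 (0.88 ± 0.17) were also positive (adjusted p = 0.00534 and 0.00419). Ccl2, Ccl7, Ccl8 and Ccl12 lie together on chromosome 11. The more abundant Ccl3 (0.03 ± 0.042, adjusted p = 0.8) and Ccl5 (0.31 ± 0.14, adjusted p = 0.236) were not called.

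Among 9 CXC chemokines and receptors, 2 differences were positive and 1 was negative, against 2.69% and 3.53% of all genes. Cxcl9, which attracts T cells, fell with Dex in control (-0.67 ± 0.15) and rose in Setd1bKO (0.37 ± 0.15), a difference of 1.04 ± 0.21 (adjusted p = 0.006). Its rise in Setd1bKO was not called in the authors' fold changes (0.20, their adjusted p = 0.272). The neutrophil chemokine Cxcl1 rose in control (0.93 ± 0.14) and had a change of 0.11 ± 0.14 in Setd1bKO that was not called (difference -0.82 ± 0.20, adjusted p = 0.023). Cxcl10, another T cell chemokine, was the second positive member (0.53 ± 0.15, adjusted p = 0.0461). With a pseudocount of 0.1 the calls for Cxcl9 (adjusted p = 0.448), Cxcl10 (adjusted p = 0.0981) and Cxcl1 (adjusted p = 0.0528) ended, which left 0. The call for Cxcl10 ended in 13 of 21 alternatives and that for Cxcl1 in 7, among them 5 that leave out a library.

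Cytokines and growth factors differed in both directions, among 16 inflammatory cytokines with 3 positive and 3 negative members, against 2.69% and 3.53% of all genes. Il1b, a pyrogenic cytokine, had 12286, 12096 and 12219.9 TPM with LPS and 4547, 4296 and 4012 TPM with Dex in control. The Setd1bKO libraries had 18027, 17633 and 16681 TPM with LPS and 9754, 9289 and 9597 TPM with Dex. Setd1bKO was the higher genotype in both treatments without overlap, and Dex left 35.1% of the LPS level in control and 54.7% in Setd1bKO (difference 0.64 ± 0.092, adjusted p = 0.000505). Its antagonist Il1rn also had a positive difference (1.01 ± 0.11, adjusted p = 4.65e-05), from an LPS level that was 1196 ± 37.8 TPM in control and 221 ± 8.47 TPM in Setd1bKO. Inhba, a subunit of activin A, fell from 174, 171 and 172 TPM to 18.6, 20.8 and 19.8 TPM in control. In Setd1bKO it fell from 15.95, 19.1 and 22.1 TPM to 3.88, 7.64 and 6.59 TPM, so that its level with LPS in Setd1bKO overlapped its level with Dex in control (difference 1.52 ± 0.24, adjusted p = 0.000919).

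Tnf and Ifnb1, products of the first wave after LPS, were lowered more in Setd1bKO. Tnf had 7497, 6612 and 7278 TPM with LPS and 6734, 7344 and 7918 TPM with Dex in control, groups that overlapped. In the libraries labelled Setd1bKO it stood at 13347, 12787 and 13497 TPM with LPS and 8488, 8590.3 and 7994 TPM with Dex. Dex thus changed Tnf in Setd1bKO (-0.66 ± 0.084) but not detectably in control (0.04 ± 0.084, adjusted p = 0.704), and the difference was -0.70 ± 0.12 (adjusted p = 0.0019). Ifnb1, the interferon beta gene (chromosome 4, 88522025 to 88522774), had 9.95, 8.11 and 8.48 TPM with LPS and 2.87, 6.92 and 7.75 TPM with Dex in control. Its Setd1bKO values were 14.5, 15.8 and 13.5 TPM with LPS and 1.93, 1.81 and 0.862 TPM with Dex. Setd1bKO was above control with LPS and below it with Dex, and control replicate 1 with Dex lay below the other two. The difference was -2.04 ± 0.32 (adjusted p = 0.0011). Il6 fell to 44.2% of its LPS level in control and 44.5% in Setd1bKO, with a difference of 0.01 ± 0.11 (adjusted p = 0.967, interval -0.22 to 0.25).

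Colony-stimulating factors and their receptors, which set the number and state of macrophages and granulocytes, had 4 negative and 1 positive difference among 8, against 3.53% and 2.69% of all genes. Csf2, which encodes GM-CSF, had 35.3, 27.6 and 35.1 TPM with LPS and 4.56, 4.93 and 6.504 TPM with Dex in control. In Setd1bKO it had 386, 378 and 368 TPM with LPS and 27.9, 27.03 and 20.9 TPM with Dex. The Setd1bKO level was the higher in both treatments, without overlap, while Dex left 6.69% of it against 16.3% in control (difference -1.44 ± 0.17, adjusted p = 9.92e-05). Csf3, which encodes G-CSF, was raised by Dex. It rose from 19.2 ± 0.865 to 92.2 ± 9.22 TPM in control and from 44.7 ± 1.03 to 135 ± 8.85 TPM in Setd1bKO (difference -0.63 ± 0.11, adjusted p = 0.002, but 0.375 with a pseudocount of 0.1). The receptor Csf1r, which binds M-CSF and keeps macrophages alive, moved in opposite directions. It went from 194, 186 and 197 TPM to 256, 267 and 264.8 TPM with Dex in control. In Setd1bKO it went from 143, 152 and 149.8 TPM to 123, 128 and 123 TPM, without overlap between treatments in either genotype. The change was 0.44 ± 0.034 in control and -0.25 ± 0.034 in Setd1bKO, both called and both with the same signs after scaling (0.23 and -0.43), and the difference was -0.69 ± 0.048 (adjusted p = 3.33e-07).

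**Figure D2:**
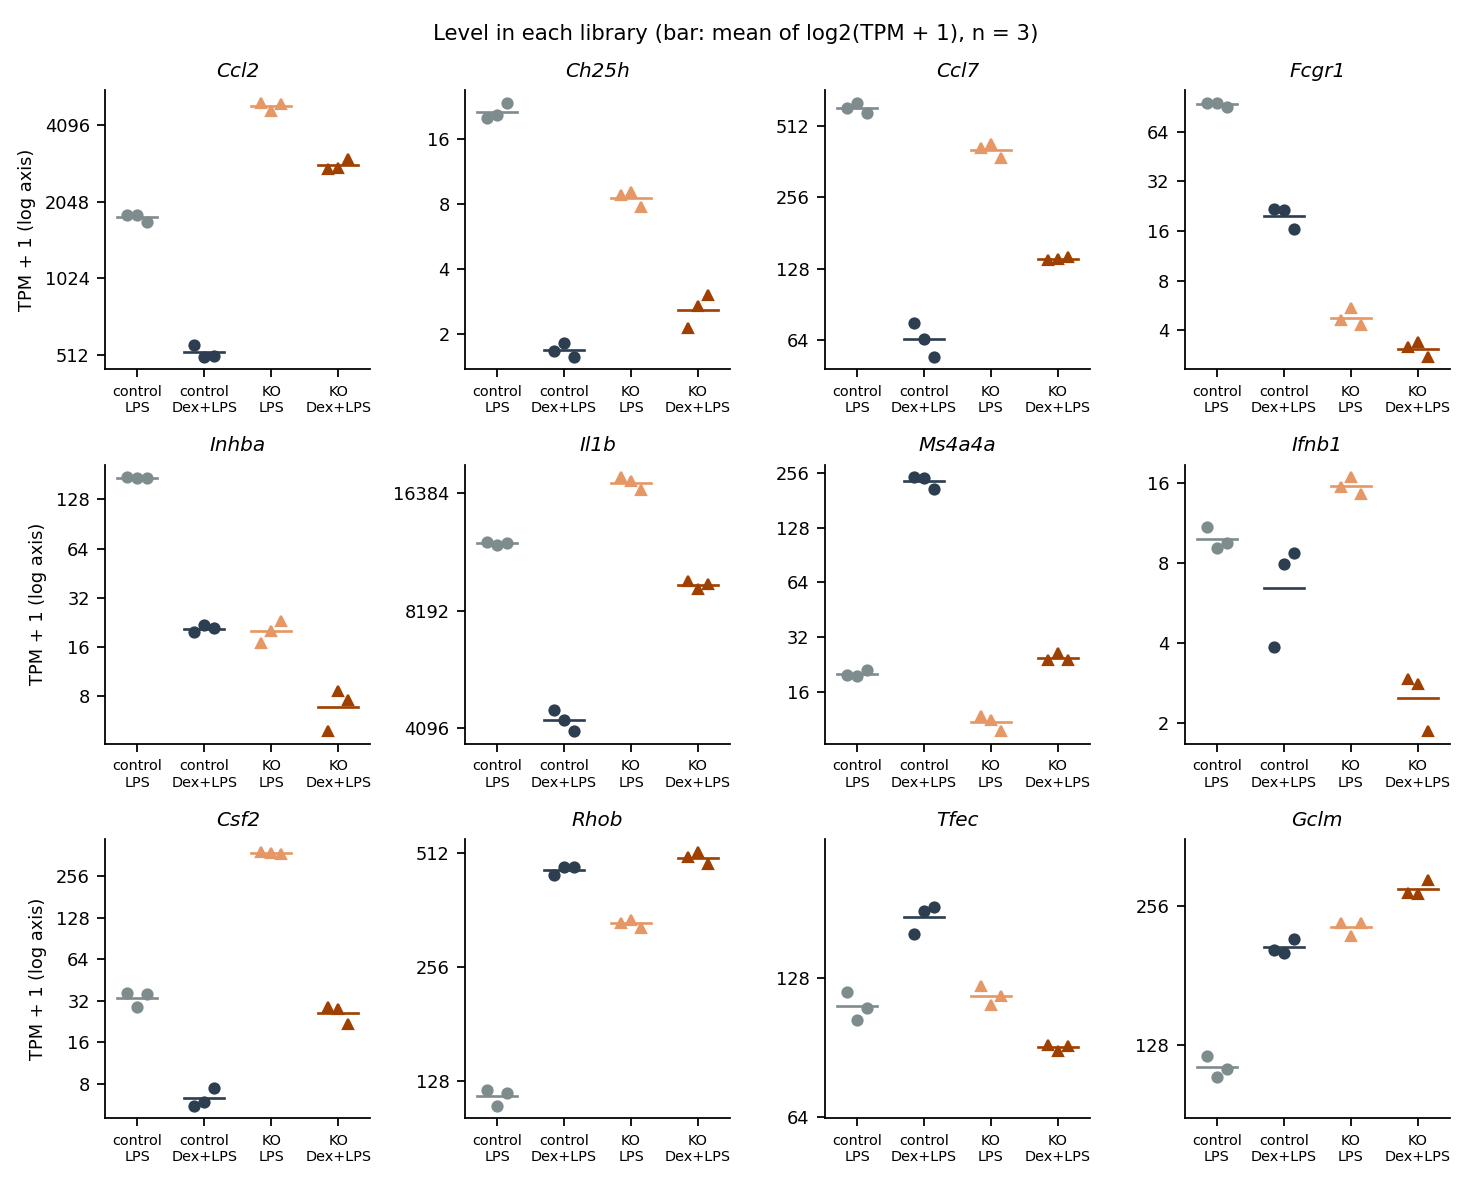
Level of 12 genes in each library of the 4 groups, as TPM + 1 on a log axis, with control as circles, the libraries labelled Setd1bKO (KO) as triangles and a bar at the mean of log2(TPM + 1) of the 3 libraries. Ccl7 and Ch25h show Setd1bKO below control with LPS and above it with Dex, Ms4a4a rises mainly in control, and Tfec rises in control and falls in Setd1bKO.

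Interferon-stimulated genes, the antiviral programme that follows interferon beta, had few called differences. Of 72 tested, 5 had positive and 1 had a negative difference, 8.33% against 6.21% of all genes, with a median of 0.05. Dex lowered 66 of them in control and 67 in Setd1bKO, where it lowered 15.2% and 13.5% of all genes. Ifit1 was left at 50.7% of its LPS level in control and 48.9% in Setd1bKO (difference -0.05 ± 0.084, adjusted p = 0.815), and Isg15 at 60.1% and 61.3% (0.03 ± 0.093, adjusted p = 0.906). The called members were led by Slfn4 (1.15 ± 0.24), Ifit1bl1 (1.05 ± 0.12) and Irf8 (0.88 ± 0.087), a transcription factor of the macrophage lineage (adjusted p = 0.00908, 9.51e-05 and 1.75e-05). The negative member was Irf9 (-0.24), a subunit of the factor that binds these genes' promoters, which was named after its value was seen. Without control Dex with LPS replicate 1 the positive members numbered 10.

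Of 10 tested enzymes of nitric oxide, arginine, itaconate and related products, which make small inflammatory mediators, 4 were positive and 0 negative, against 2.69% and 3.53% of all genes. Ch25h, which makes 25-hydroxycholesterol, had 19.1, 19.9 and 22.7 TPM with LPS and 0.672, 0.818 and 0.565 TPM with Dex in control. The Setd1bKO libraries had 7.88, 8.11 and 6.76 TPM with LPS and 1.13, 1.68 and 2.03 TPM with Dex. The genotypes changed places without overlap, as for Ccl7 (difference 1.95 ± 0.17, adjusted p = 5.83e-06). Nos2, the inducible nitric oxide synthase, was left at 16.6% of its LPS level in control and 25.3% in Setd1bKO (0.58 ± 0.11, adjusted p = 0.00376). Ass1, which returns citrulline to arginine, had a difference of 0.63 ± 0.079 (adjusted p = 0.00015). Acod1, the itaconate enzyme, was not called (-0.07 ± 0.06, adjusted p = 0.577). Among 12 prostaglandin and leukotriene genes, the phospholipase Pla2g4a had a positive difference (0.70 ± 0.11, adjusted p = 0.000953) and Pla2g7, which breaks down platelet-activating factor, a negative one (-0.46 ± 0.062, adjusted p = 0.000262). The cyclooxygenase Ptgs2 was lowered to 17.7% in control and 19.5% in Setd1bKO and was not called (0.12 ± 0.18, adjusted p = 0.783).

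The oxidative stress programme had negative differences for 14 of its 36 tested genes. NRF2, the product of Nfe2l2, is a transcription factor that is freed from Keap1 by oxidants and raises glutathione, thioredoxin and heme-degrading enzymes through antioxidant response elements. Of the 36, 14 had negative and 1 a positive difference, with a median of -0.27, against a median of -0.03 and 3.53% negative among all genes. Over the alternatives 12 to 15 were negative. Of the 14, Cd36, a scavenger receptor, was lowered more in Setd1bKO (-0.29 ± 0.082, adjusted p = 0.0451), a call that ended in 13 of 21 alternatives. The others were raised less or not detectably on this TPM scale. Dex raised 28 of the 36 in control and 21 in Setd1bKO, where it raised 44.8% and 39.2% of all genes. With LPS alone 25 of them were higher in Setd1bKO than in control, where 29.0% of all genes were, and 3 were lower (12.4% of all genes). With Dex 24 were higher (23.5% of all genes) and 6 lower (11.5%), and the median gap between the genotypes went from 0.41 to 0.23. These shares of all genes depend on the scaling, with which 1452 genes were higher and 1824 lower in Setd1bKO with LPS, and 1178 higher and 1507 lower with Dex. Txnrd1, the cytosolic thioredoxin reductase, had 278, 261 and 273 TPM with LPS and 391, 431 and 451 TPM with Dex in control. In the libraries labelled Setd1bKO it stood at 535, 527 and 544 TPM with LPS and 508, 547 and 535 TPM with Dex, where the treatments overlapped. The Dex change was 0.64 ± 0.045 in control and -0.01 ± 0.045 in Setd1bKO, a difference of -0.66 ± 0.064 (adjusted p = 1.51e-05). In the authors' fold changes Txnrd1 (-0.20) and Sqstm1 (-0.14), another of the 14, fell in Setd1bKO (their adjusted p = 6.82e-05 and 0.0476). Gclm, the modifier subunit of the first enzyme of glutathione synthesis, had 120.4, 108 and 113 TPM with LPS and 205, 201 and 216 TPM with Dex in control. Its Setd1bKO values were 234, 219.6 and 234 TPM and 272, 270.0 and 289.7 TPM, so that its level before Dex was above that of control after Dex (difference -0.59 ± 0.075, adjusted p = 0.000186). Gclc, the catalytic subunit of the same enzyme (-0.68 ± 0.095), the sulfiredoxin Srxn1 (-0.62 ± 0.12), the glutathione transferase Gsta3 (-0.61 ± 0.11) and the heme oxygenase Hmox1 (-0.53 ± 0.09) had negative differences too (adjusted p = 0.00038, 0.00424, 0.00259 and 0.00197). Thioredoxin itself, Txn1, was the positive member (0.42 ± 0.062, adjusted p = 0.000552), and was named after its value was seen. Nfe2l2 rose by 0.60 ± 0.033 in control and 0.33 ± 0.033 in Setd1bKO (-0.27 ± 0.047, adjusted p = 0.002). The ferritin chains Fth1 (0.08 ± 0.044, adjusted p = 0.35) and Ftl1 (-0.02 ± 0.054, adjusted p = 0.887), which are the most abundant members, were not called.

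Promoter sequences of 4 of the called NRF2 genes are given because they hold the element through which NRF2 acts. They are those with the largest differences among members whose RefSeq promoter window, from 250 bases before to 50 after the start on GRCm38.p6, matches TGACNNNGC on either strand, the core of the antioxidant response element. Capitals mark the match. All 4 genes lie on the plus strand, with windows at chr10:82858956-82859255, chr2:152105274-152105573, chr1:21240335-21240634 and chr3:122245307-122245606. The match is on the printed strand in Gsta3 and on the opposite strand in Txnrd1, Srxn1 and Gclm.
Txnrd1: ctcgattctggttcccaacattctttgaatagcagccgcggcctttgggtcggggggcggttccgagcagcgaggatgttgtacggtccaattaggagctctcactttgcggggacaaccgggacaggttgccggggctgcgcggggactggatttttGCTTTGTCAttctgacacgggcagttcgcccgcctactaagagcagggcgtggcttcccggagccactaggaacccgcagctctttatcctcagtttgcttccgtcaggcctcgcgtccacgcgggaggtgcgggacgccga
Srxn1: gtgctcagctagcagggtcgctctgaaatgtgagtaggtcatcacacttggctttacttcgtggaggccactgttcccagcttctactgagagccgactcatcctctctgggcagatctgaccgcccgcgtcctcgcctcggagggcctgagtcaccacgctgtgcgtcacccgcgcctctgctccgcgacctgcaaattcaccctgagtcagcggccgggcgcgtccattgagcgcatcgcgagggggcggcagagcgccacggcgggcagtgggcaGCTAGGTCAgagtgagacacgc
Gsta3: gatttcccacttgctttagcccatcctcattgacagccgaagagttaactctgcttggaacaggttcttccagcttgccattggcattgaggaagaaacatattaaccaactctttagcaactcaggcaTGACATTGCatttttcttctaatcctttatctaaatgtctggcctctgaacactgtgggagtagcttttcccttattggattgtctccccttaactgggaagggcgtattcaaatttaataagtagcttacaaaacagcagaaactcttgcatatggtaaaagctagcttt
Gclm: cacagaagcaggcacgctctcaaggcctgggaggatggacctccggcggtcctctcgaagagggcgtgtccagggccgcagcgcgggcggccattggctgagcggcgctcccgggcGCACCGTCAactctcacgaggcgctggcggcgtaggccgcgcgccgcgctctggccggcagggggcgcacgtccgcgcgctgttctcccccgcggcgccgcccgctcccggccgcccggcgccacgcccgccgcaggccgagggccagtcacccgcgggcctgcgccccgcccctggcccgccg
The match begins 92 bases before the start in Txnrd1, 121 in Gsta3 and 134 in Gclm, and 28 bases after it in Srxn1. The other windows of Txnrd1 held no match. Of the 36 listed genes, 30 had a promoter window, and 12 of these (40.0%) held the element in at least 1 window. Among the 14 with negative differences 9 had a window and 6 of the 9 held it. Of the 7362 tested genes with a window 17.3% held it, and of all 27025 genes with a window 3781 did. Over all called genes with a window, 50 of 255 negative (19.6%) and 33 of 194 positive genes (17.0%) held it. The receptor's single-arm site AGAACA was present for 18.4% of the negative and 17.0% of the positive genes, against 14.5% of tested genes. The full glucocorticoid response element was found for 0 of the called genes and for 1 of the tested genes (0.0136%). Of all 27025 genes with a window only 3 held it. Matches were thus too rare for the 0 to show whether the called genes lack the element, and sites outside the window were not searched. The interferon-stimulated response element was found for 8.76% of the positive and 3.92% of the negative genes, against 4.05% of tested genes. A match is a description of letters in this window and not a measured binding site.

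Genes of the unfolded protein and integrated stress responses, which include chaperones of the endoplasmic reticulum, had negative differences too. Of 35 tested, 9 had negative and 0 positive differences, against 3.53% and 2.69% of all genes, with a median of -0.19, and over the alternatives 8 to 11 were negative and 0 or 1 positive. Dex raised 23 of them in control, where it raised 44.8% of all genes, and 14 in Setd1bKO, where it raised 39.2%. Dnajb9, a cochaperone of the lumen, rose from 12.01, 14.4 and 11.8 TPM to 27.1, 28.9 and 27.99 TPM in control. In Setd1bKO it rose from 16.9, 17.4 and 20.8 TPM to 21.3, 23.7 and 24.5 TPM, from a higher start to a lower end (difference -0.76 ± 0.12, adjusted p = 0.00124). The rise of Dnajb9 in Setd1bKO was not called in the authors' fold changes (0.15, their adjusted p = 0.287). Herpud1, which serves the degradation of misfolded proteins (-0.65 ± 0.11, adjusted p = 0.002), and Ppp1r15a, the phosphatase subunit also called GADD34 (-0.54 ± 0.064, adjusted p = 9.51e-05), had negative differences. The chaperone Hyou1 rose by 0.48 ± 0.06 in control and had a change of 0.04 ± 0.06 in Setd1bKO that was not called (-0.43 ± 0.085, adjusted p = 0.00525). In the authors' fold changes Hyou1 fell in Setd1bKO (-0.14, their adjusted p = 0.0184). The main lumenal chaperone Hspa5 was not called (-0.39 ± 0.14, adjusted p = 0.136). Of 15 cytosolic heat shock proteins 0 were called by limma, against 6.21% of all genes. Of the 15, 6 had an unadjusted p under 0.05, against 1737 of all 9159 genes, and a pseudocount of 5 called 2 positive.

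**Figure D3:**
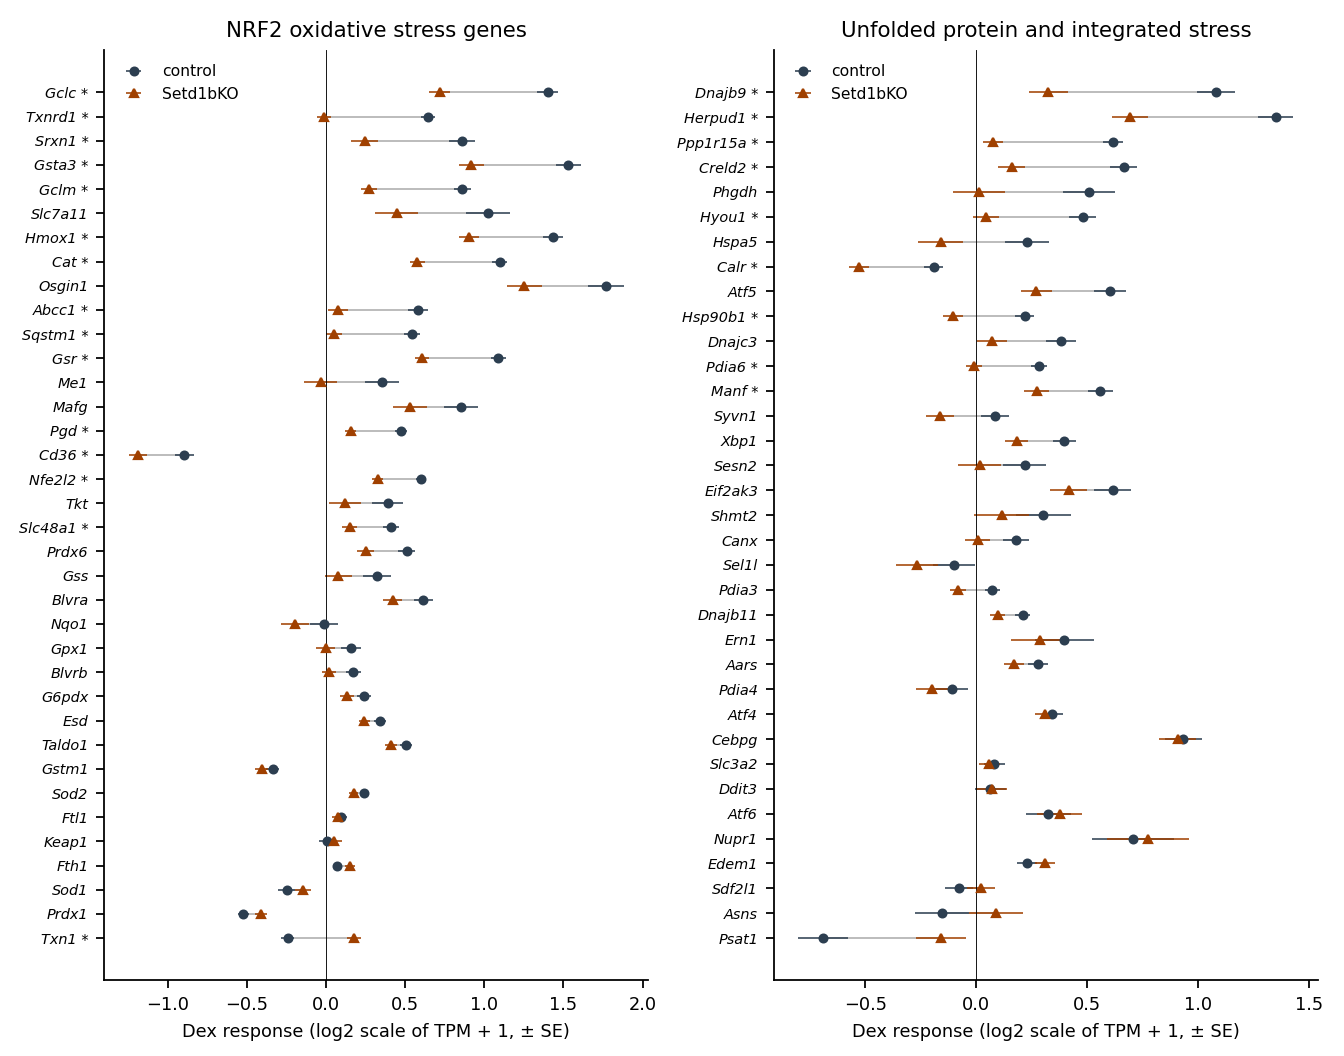
Dex response with its standard error for the 36 NRF2 genes (left) and the 35 genes of the unfolded protein and integrated stress responses (right), control as circles and the libraries labelled Setd1bKO as triangles, ordered by their difference, on the log2 scale of TPM + 1. Asterisks mark the called differences, 15 on the left and 9 on the right, and for Gclc, Txnrd1 and Dnajb9 the triangle lies well to the left of the circle.

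Of 29 tested genes of glycolysis and the hypoxia response, 6 had positive and 0 negative differences, against 2.69% and 3.53% of all genes, with a median of 0.13, and 3 to 7 were positive over the alternatives, the lowest under the replicate block within genotype. Pfkfb3, whose product makes the activator of phosphofructokinase, had 39.7, 37.8 and 37.04 TPM with LPS and 85.1, 72.98 and 64.7 TPM with Dex in control. In Setd1bKO it had 12.4, 14.5 and 13.98 TPM with LPS and 51.1, 61.00 and 61.2 TPM with Dex. Dex raised it in both genotypes, from a level with LPS that was lower in Setd1bKO to levels nearer to each other (difference 1.07 ± 0.13, adjusted p = 9.51e-05). The hexokinase Hk1 fell in control (-0.49 ± 0.055) and had a change of -0.02 ± 0.055 in Setd1bKO that was not called (difference 0.47 ± 0.078, adjusted p = 0.00154). In the authors' fold changes Hk1 fell in Setd1bKO too (-0.20, their adjusted p = 0.00259). The abundant enzymes Aldoa (-0.07 ± 0.063, adjusted p = 0.632) and Gapdh (0.13 ± 0.049, adjusted p = 0.15) were not called.

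Surface proteins of macrophages held the most negative difference among called genes that reached 5 TPM in some group. Ms4a4a, a tetraspan membrane protein of alternatively activated macrophages (chromosome 19, 11375523 to 11392790), had 18.7, 18.5 and 19.9 TPM with LPS and 241, 239.6 and 208 TPM with Dex in control. The Setd1bKO libraries had 10.7, 10.1 and 8.68 TPM with LPS and 22.7, 25.1 and 22.9 TPM with Dex. Dex raised it in both genotypes, but its highest Setd1bKO value with Dex stayed far below the lowest control value with Dex. The response was 3.52 ± 0.11 in control and 1.19 ± 0.11 in Setd1bKO, a difference of -2.33 ± 0.16 (adjusted p = 3.33e-07). Of 7 tested members of the Ms4a family 2 were negative and 0 positive, against 3.53% and 2.69% of all genes. The second was Ms4a6b (-0.47 ± 0.12, adjusted p = 0.0279), whose call ended in 9 of 21 alternatives, scaling and a pseudocount of 0.1 among them. Ms4a6c and Ms4a6d, which were also raised in both genotypes and were lower in Setd1bKO, were not called (-0.23 ± 0.11 and -0.15 ± 0.057, adjusted p = 0.274 and 0.157). Members of this family are close in sequence, and the sources used here do not give how reads were shared among them.

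Fc receptors bind antibody-coated particles, and 3 of 7 had positive and 0 negative differences, against 2.69% and 3.53% of all genes. Fcgr1, the high-affinity receptor for immunoglobulin G, had 94.3, 95.1 and 89.4 TPM with LPS and 20.8, 20.5 and 15.4 TPM with Dex in control. In the libraries labelled Setd1bKO it stood at 3.59, 4.46 and 3.29 TPM with LPS and 2.17, 2.38 and 1.76 TPM with Dex, below every control library. It thus fell to 20.3% of its LPS level in control and to 55.6% of a low level in Setd1bKO (difference 1.63 ± 0.16, adjusted p = 2.11e-05). Of 36 macrophage identity genes 4 were positive and 6 negative, 27.8% against 6.21% of all genes. The summed macrophage markers were lower in every Setd1bKO library than in every control library of the 4 groups, and the part of this in the result was not tested. Lyz2 made up most of the sum, at 21606 of 23608 TPM in control LPS replicate 1. Adgre1, Cd68, Csf1r and Itgam were lower in Setd1bKO in the same way, while Mertk overlapped between the genotypes with Dex. Adgre1, which encodes the F4/80 antigen, rose by 0.52 ± 0.043 in control and 0.13 ± 0.043 in Setd1bKO (-0.39 ± 0.061, adjusted p = 0.000953). The lysosomal antigen Cd68 fell by 0.15 in control and rose by 0.25 ± 0.027 in Setd1bKO (0.40 ± 0.038, adjusted p = 1.46e-05). Neither Adgre1 (-0.05) nor Cd68 (0.07) had a called change in Setd1bKO in the authors' fold changes (their adjusted p = 0.497 and 0.203). The lysozyme Lyz2, the most abundant marker, was not called (-0.04 ± 0.048, adjusted p = 0.699). Antigen presentation genes of class II had 4 positive and 1 negative difference among 13, against 2.69% and 3.53% of all genes, and without control LPS replicate 1 only 2 were positive. Those of class I had 0 among 20 by limma, against 6.21% of all genes. Of the 20, 5 had an unadjusted p under 0.05, against 1737 of all 9159 genes. The costimulatory ligand Cd86 fell to 21.2% in control and 49.03% in Setd1bKO (1.10 ± 0.16, adjusted p = 0.000462), while Cd83, a regulator of class II turnover, fell to 78.2% and 39.7% (-0.96 ± 0.12, adjusted p = 0.000143). Of 22 Toll-like receptors and adaptors, Tlr2, a receptor for bacterial lipoproteins, fell in control (-0.36 ± 0.056) and rose in Setd1bKO (0.22 ± 0.056). The difference was 0.57 ± 0.079 (adjusted p = 0.000342), while the rise of Tlr2 was not called in the authors' fold changes (0.03, their adjusted p = 0.755). Tlr13, which senses bacterial ribosomal RNA, was raised less in Setd1bKO (-0.50 ± 0.082, adjusted p = 0.00154), and the coreceptor Cd14 was not called (0.01 ± 0.077, adjusted p = 0.953).

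Matrix proteins, a lipase and metabolic genes were among the most positive differences. The endothelial lipase Lipg had 14.95, 13.7 and 12.7 TPM with LPS and 1.56, 1.17 and 1.66 TPM with Dex in control. Its Setd1bKO values were 0.960, 1.203 and 0.917 TPM with LPS and 0.384, 0.323 and 0.387 TPM with Dex, near or below 1 TPM throughout (difference 2.02 ± 0.12, adjusted p = 5.6e-08). Tnc, the matrix protein tenascin C, fell from 8.79 ± 0.104 to 0.185 ± 0.0229 TPM in control and from 2.36 ± 0.172 to 0.164 ± 0.00646 TPM in Setd1bKO (1.52 ± 0.073, adjusted p = 7.59e-09), to ends that overlapped near 0. The matrix protein Tgfbi went from 23.8 ± 0.879 to 4.63 ± 0.593 TPM in control and from 1.43 ± 0.0883 to 0.748 ± 0.0400 TPM in Setd1bKO (1.67 ± 0.10, adjusted p = 1.57e-07). The uridine diphosphate receptor P2ry6 (1.36 ± 0.17) and the kynureninase Kynu (1.24 ± 0.091) had positive differences as well (adjusted p = 0.000137 and 6.59e-07). For Lipg, Tgfbi, P2ry6 and Kynu the Setd1bKO libraries were below control in both treatments.

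Further negative differences included regulators of the cytoskeleton and of signalling. Phlda1, a pleckstrin-homology protein, had 11.6, 8.61 and 9.62 TPM with LPS and 18.8, 24.5 and 24.97 TPM with Dex in control. In Setd1bKO it had 59.8, 56.8 and 55.2 TPM with LPS and 56.02, 49.7 and 46.6 TPM with Dex. It rose in control (1.12 ± 0.14) and had a change in Setd1bKO that was not called (-0.17 ± 0.14, adjusted p = 0.304), from a level that was already higher (difference -1.29 ± 0.19, adjusted p = 0.000693). Fscn1, which bundles actin, had a change of 0.15 ± 0.16 in control that was not called and fell by 1.06 in Setd1bKO (-1.21 ± 0.23, adjusted p = 0.00365, but 0.229 with a pseudocount of 0.1). The GTPase Rhof (-1.08 ± 0.23) and Lrmp, an endoplasmic reticulum protein of lymphocytes (-1.20 ± 0.23), fell in Setd1bKO (adjusted p = 0.00842 and 0.00419 for the differences). In control Rhof rose by 0.48 ± 0.16, and the change of Lrmp was 0.24 ± 0.16 (adjusted p = 0.214). The rise of Rhof was not called in the authors' fold changes (0.34, their adjusted p = 0.219). Ankrd44 (-1.07 ± 0.20), the ribonuclease Rnase4 (-1.04 ± 0.13) and the protease inhibitor Serpine2 (-1.03 ± 0.20) were raised less in Setd1bKO (adjusted p = 0.00376, 0.000224 and 0.00419). The rise of Rnase4 in Setd1bKO was not called in the authors' fold changes (0.20, their adjusted p = 0.388). For Serpine2 a pseudocount of 0.1 ended the call (adjusted p = 0.093). The proteoglycan Sdc4 ended at 2532 ± 38.1 TPM in control and 2532 ± 164 TPM in Setd1bKO from starts of 754 ± 63.4 and 1186 ± 94.04 TPM (-0.65 ± 0.096, adjusted p = 0.000552).

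Feedback inhibitors and immediate early factors moved both ways. Of 26 inhibitors of NF-kB, MAP kinase and JAK signalling, 4 were negative and 1, Dusp1, positive, against 3.53% and 2.69% of all genes. The negative members were 2 with a pseudocount of 0.1 and 3 with scaling. The phosphatase Dusp2 rose by 0.80 ± 0.10 in control and had a change of 0.07 ± 0.10 in Setd1bKO that was not called (-0.74 ± 0.14, adjusted p = 0.00511). The NF-kB inhibitors Nfkbia (-0.11 ± 0.073, adjusted p = 0.439) and Tnfaip3 (-0.12 ± 0.19, adjusted p = 0.81) were not called. Of 20 immediate early factors, 4 were negative and 2 positive, against the same shares. Egr2 was lowered in Setd1bKO from 16.8 ± 0.492 to 8.90 ± 0.394 TPM and stood at 7.26 ± 0.675 and 6.27 ± 0.369 TPM in control (-0.66 ± 0.13, adjusted p = 0.00451). Atf3, a transcriptional repressor, was left at 30.6% of its LPS level in control and 44.5% in Setd1bKO (0.54 ± 0.065, adjusted p = 0.00012). That LPS level was below the vehicle level, at 261 against 423 TPM in control and 397 against 458 TPM in Setd1bKO.

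Several acute-phase and inflammasome genes differed as well. Of 16 acute-phase and calprotectin genes, 3 were positive and 1 negative, against 2.69% and 3.53% of all genes, and with a pseudocount of 0.1 these became 2 and 0. Saa3, the serum amyloid A of macrophages, had 11173, 10877 and 11357 TPM with LPS and 36473, 35300.1 and 34043 TPM with Dex in control. The Setd1bKO libraries had 5214, 5159 and 4969.6 TPM with LPS and 28158, 24294 and 25892 TPM with Dex, lower than control in both treatments. Dex raised it to 317% of the LPS level in control and 511% in Setd1bKO (0.69 ± 0.12, adjusted p = 0.00179). The calprotectin subunit S100a8, a neutrophil marker too, was raised more in Setd1bKO (0.60 ± 0.094, adjusted p = 0.000991). The summed level of the 2 listed neutrophil markers was 279 to 311 TPM with Dex in control and 453 to 524 TPM in Setd1bKO, against 180 to 186 and 166 to 190 TPM with LPS, and its part in the result was not tested. Its rise was that of S100a8. The other listed marker, the G-CSF receptor Csf3r, fell with Dex from 31.7 ± 1.31 to 6.98 ± 0.678 TPM in control and from 10.8 ± 0.593 to 3.98 ± 0.325 TPM in Setd1bKO. The inflammasome sensor Nlrp3 rose in control (0.47 ± 0.06) and had a change of -0.05 ± 0.06 in Setd1bKO that was not called (-0.52 ± 0.085, adjusted p = 0.00124). In the authors' fold changes Nlrp3 fell in Setd1bKO (-0.24, their adjusted p = 0.000598). Casp1, its effector protease, was not called (0.08 ± 0.051, adjusted p = 0.439). The transcription factor Tfec, a relative of Mitf in macrophages, went from 118, 103 and 109 TPM to 158, 177 and 181 TPM in control. In Setd1bKO it went from 122, 111 and 116 TPM to 90.8, 88.1 and 90.3 TPM, so that levels which overlapped with LPS were apart with Dex (-1.005 ± 0.088, adjusted p = 5.83e-06).

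DNA replication and mitosis genes had called differences both ways. Of 37, 6 were positive and 4 negative, against 2.69% and 3.53% of all genes, with a median of -0.02. The proliferation antigen Mki67 rose in control (0.49 ± 0.10) and had a change of -0.11 ± 0.10 in Setd1bKO that was not called (-0.61 ± 0.15, adjusted p = 0.0205). The call of this difference ended in 4 of 21 alternatives, under the replicate block within genotype and without control Dex with LPS replicate 2, control Dex with LPS replicate 3 or Setd1bKO LPS replicate 3, with an adjusted p of up to 0.0576. In the authors' fold changes Mki67 fell in Setd1bKO (-0.30, their adjusted p = 0.00929). The spindle factor Tpx2 was lowered less in Setd1bKO (0.76 ± 0.12, adjusted p = 0.00127). Of 34 lysosomal genes 4 were positive and 1 negative, 14.7% against 6.21% of all genes, and of 39 cytosolic ribosomal proteins 1, Rpl10, was negative (-0.38 ± 0.068, adjusted p = 0.00266). Limma called 0 of 12 clock genes, 0 of 19 sterol and fatty acid genes, 0 of 34 nuclear-encoded oxidative phosphorylation subunits and 0 of 13 mitochondrially encoded messenger RNAs. The share called over all genes was 6.21%. Members with an unadjusted p under 0.05 numbered 3 clock, 1 sterol, 0 oxidative phosphorylation and 1 mitochondrial. The sterol list had a median of -0.25 and the mitochondrial list one of 0.17. Over all 9159 genes 1737 had an unadjusted p under 0.05.

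**Figure D4:**
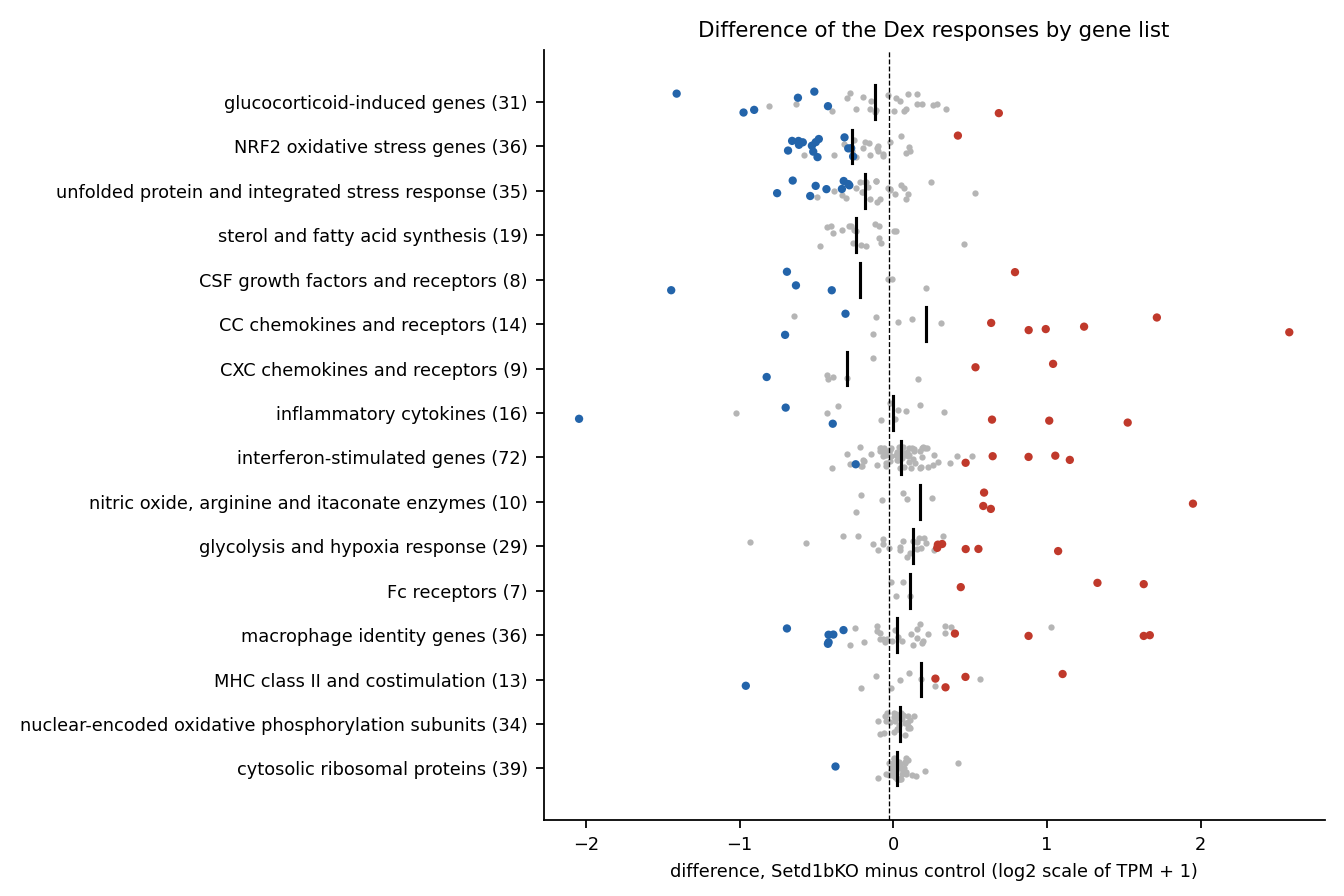
Difference of the Dex responses, Setd1bKO minus control on the log2 scale of TPM + 1, for the tested genes of 16 lists, with the number tested in brackets, called genes in red (positive) or blue (negative), others in grey, a black bar at each list's median and a dashed line at the median of all genes. The NRF2 and unfolded protein lists sit to the left of the dashed line, and called CC chemokines lie far to the right.

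Sets of genes chosen in other libraries were compared as well. They were called and changed at least 2-fold in wild-type RAW264.7 cells, a mouse macrophage line, with the 16 h treatments, in which Dex changed 47.6% and LPS 83.5% of the 8964 tested genes. Of 50 tested genes that Dex raised there, 3 had positive and 5 negative differences in the marrow-derived cells, and the median Dex response was 0.47 in control and 0.37 in Setd1bKO. Of 100 genes that Dex lowered there, 16 had positive and 10 negative differences, and Dex lowered 83 of them in control and 89 in Setd1bKO. Their median Dex response was -0.82 in control and -0.61 in Setd1bKO, and the median difference was 0.12. Of 476 genes that LPS raised there, 42 had positive and 41 negative differences, with a median of 0.02. The shares called were 16.0%, 26.0% and 17.4%, against 6.21% of all genes.

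The Dex response also differed between RAW264.7 cells labelled Setd1aDel, for the related gene Setd1a, and wild-type cells in the 16 h experiment. There 946 of 8964 tested genes were called (10.6%), 258 in the positive (2.88%) and 688 in the negative direction (7.68%). Of the genes with positive differences in the marrow-derived cells, 184 were tested there, with 23 positive and 33 negative. Of those with negative differences 263 were tested, with 16 positive and 26 negative. Il1b (1.19 ± 0.094), Nos2 (0.40 ± 0.095) and Klf9 (-0.34 ± 0.098) had the same direction in Setd1aDel as in Setd1bKO (adjusted p = 5.85e-07, 0.0141 and 0.0408). Csf2 (0.61 ± 0.12), Ccl2 (-1.34 ± 0.16), Dusp1 (-0.54 ± 0.078) and Pfkfb3 (-0.45 ± 0.060) had the opposite direction (adjusted p = 0.00424, 3.99e-05, 0.00027 and 0.00014). Txnrd1 (-0.02 ± 0.044) and Gclm (-0.12 ± 0.075) were not called there (adjusted p = 0.815 and 0.363). Each of these values comes from its own table, and whether the differences of Setd1aDel and Setd1bKO differ from each other was not tested. The authors' deposited fold changes for Dex, taken as Setd1bKO minus control, had the same sign as the difference for 567 of the 569 called genes. They come from the same libraries in which these genes were called, so this is a check of the processing and not independent support.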

How the data were processed

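RNA was measured in 18 libraries of marrow-derived macrophages, 3 in each of 6 groups, of which 12 enter the difference. The authors deposited TPM values, and beside them log2 fold changes with p-values and a mean signal per gene (baseMean). The submitters' processing notes name Salmon 0.10.2, DESeq2, R 3.6.0 and GRCm38.p6. Read counts were not used here, so the depth is unknown. The table lists 9179 genes, with a lowest baseMean of 50.12, so a gene that is not listed may still be expressed at a low level. TPM summed to 837032 to 909974 per library.

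The 9159 genes that reached 1 TPM in 3 or more libraries were fitted as log2(TPM + 1) with limma-trend 3.58.1 in R 4.3.3, with 1 mean per group over all 18 libraries. Contrasts were two-sided, with Benjamini-Hochberg adjustment over all tested genes and calls at an adjusted p under 0.05. The scale understates the change of low genes. The fit was tested on simulated data.

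Lists of genes and the members described were chosen with earlier results of these data known. Named genes are the 12 most positive and 12 most negative called differences that reached 5 TPM in a group, up to 5 called members and the 2 most abundant members without a call of each list, and a set of well-known genes. Genes named outside this rule are said to be, and 1 gene that the rule names is not reported here. Positions are GENCODE M21 on GRCm38, and promoters are RefSeq's. Alternatives were other pseudocounts and filters, scaling, replicate blocks, the 12 libraries alone, robust moderation and leaving out each library.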

Additional observations from a re-analysis of the deposited data

Results flagged for a closer look

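By limma's test of the difference itself, 569 genes had unequal Dex responses in control and in the libraries labelled Setd1bKO. In 43 of the 9159 tested genes the Dex response was called in both genotypes with opposite signs, and 8 of these had a called difference, at least 5 TPM in a group and no overlap of treatments in either genotype, and kept the signs and calls of both responses and the call of the difference after scaling. Tfec, Lcp2 and Csf1r rose with Dex in control and fell in Setd1bKO. Stmn1, Xdh, Gadd45a, Ubtd1 and P2ry2 fell in control and rose in Setd1bKO. Apart from Tfec and Csf1r, these genes were chosen after their values were seen, and their differences are descriptions.

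Tfec, a transcription factor, had a difference of -1.005, with scaled responses of 0.42 in control and -0.55 in Setd1bKO. Lcp2, an adaptor of immune receptors also called SLP-76, had 234, 214 and 228 TPM with LPS and 322, 336 and 331 TPM with Dex in control. In Setd1bKO it had 166, 175 and 168 TPM and 136, 139 and 133 TPM, a difference of -0.87. The M-CSF receptor Csf1r had a difference of -0.69. Stmn1, which destabilises microtubules, had 36.8, 33.2 and 32.8 TPM with LPS and 26.9, 29.6 and 30.1 TPM with Dex in control, and 23.5, 25.5 and 24.3 TPM and 31.6, 32.96 and 33.7 TPM in Setd1bKO. Its difference was 0.65. The differences were 0.62 for the xanthine dehydrogenase Xdh, 0.60 for the DNA damage gene Gadd45a, 0.56 for Ubtd1 and 0.51 for the nucleotide receptor P2ry2.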

How the results depend on the processing

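The count of genes whose Dex response differed was 569, and over the alternatives other than leaving out a library it ran from 416, in the 12 libraries alone, to 630, with a pseudocount of 5. It was 488 with a pseudocount of 0.1, 569 without a filter, 550 with a minimum of 5 TPM, 605 with scaling and 566 with robust moderation. Leaving out 1 library gave 410, without control Dex with LPS replicate 3, to 589, without Setd1bKO Dex with LPS replicate 1. Of the 569 genes, 393 to 488 were still called then. Scaling gave 1884 raised and 2454 lowered genes for Dex in control, and 1404 and 2178 in Setd1bKO. It also gave 1452 higher and 1824 lower genes in Setd1bKO with LPS, and 1178 higher and 1507 lower with Dex. Deviations of same-numbered libraries with LPS and with Dex had correlations of -0.028 to 0.015 in control and 0.0003 to 0.183 in Setd1bKO. Those of differently numbered libraries were -0.029 to 0.054 in control and -0.243 to 0.174 in Setd1bKO. These values do not settle whether the replicate numbers are pairs, and the main fit did not take them as pairs. The replicate block within genotype gave 477 differences and the block over all libraries 534. The replicate block within genotype gave 1681 positive genes for Setd1bKO against control under LPS and 1293 for Setd1bKO against control under Dex and LPS. Of 198 named genes 118 were called, and 84 of these in all 21 alternatives. Depth in reads is unknown, 3 libraries per group limit the precision, and levels below about 1 TPM carry little information on log2(TPM + 1). The cause of these shifts was not tested.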
